A study of Mus musculus with 20 samples.

Results

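The spliceosomal small nuclear RNA (snRNA) genes were examined as a group in the axonal and somatodendritic transcriptomes of cultured mouse motoneurons. They were chosen as the rows annotated as snRNA with a mean of at least 1 FPKM (fragments per kilobase of transcript and library size) over all 20 libraries. This rule kept 51 of 1387 snRNA rows, out of 39174 genes in the tables. Some of the 51 are copies with the same FPKM in every library, and counted once they gave 46 members. The 51 rows comprised 12 U1a, 9 U1b, 12 U2, 2 U4, 5 U5 and 4 U6 genes, 1 gene each for U4atac, U6atac, U11 and U12, and 3 rows that resembled no type closely. Members were thus selected on their mean FPKM alone, and that they are detected is no finding. At its edge, Gm24144 (mean 1.02 FPKM) and Gm22740 (1.06 FPKM) were just inside, and Gm24490 (0.947 FPKM) and Gm25899 (0.857 FPKM) just outside, each above 0 in 1 library.

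Motoneurons were isolated from the spinal cords of CD-1 mouse embryos and enriched by panning on an antibody against p75. They were grown in microfluidic chambers, where the axonal side can be harvested separately from cell bodies and dendrites. Control cultures carried an empty lentiviral vector and knockdown cultures a lentiviral vector with a short hairpin RNA against Tdp-43, an RNA-binding protein. There were 4 control axonal, 4 control somatodendritic, 6 knockdown axonal and 6 knockdown somatodendritic libraries, each from total RNA amplified by PCR. The labels name no separate cultures, so p-values measure the spread between libraries. The study states that control and knockdown cultures were handled side by side for sequencing and that the control libraries had been described earlier. The labels give no batch, so that no within-batch values could be computed.

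Spliceosomal snRNAs are short, abundant RNAs without poly(A) tails that bind proteins to form snRNPs, the building blocks of the spliceosome. U1 base-pairs with the start of an intron and U2 with its branch point, while U4, U5 and U6 join as a tri-snRNP in which U4 holds U6 inactive until splicing starts. U11, U12, U4atac and U6atac serve a rare class of introns. Apart from U6 and U6atac, these RNAs are exported to the cytoplasm, receive a ring of Sm proteins with the help of the SMN complex, and return to the nucleus. Loss of SMN causes spinal muscular atrophy, a motoneuron disease.

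Representative genes of some of the types described below are printed with the stretch named for each in capitals. Types came from symbols and sequence identity and not from these letters. The sequences come from GENCODE M21 on build GRCm38, on the strand of the gene, and all 51 rows had a sequence there of the same length as in the tables. Rnu1a1 (chr11:87422867-87423030, plus strand, in an intron of Tex14) carries the letters ACTTACCTG that pair with the start of introns at bases 3 to 11. Rnu2-10 (chr11:101658238-101658428, plus strand, intergenic) carries the branch point pairing letters GTAGTA at bases 33 to 38. In Gm24265, a U4 gene (chr5:115489459-115489599, plus strand, intergenic), bases 5 to 12 are the longest run complementary to U6. In Gm22710, a U4atac gene (chr1:118459141-118459265, minus strand, in an exon of 2900060B14Rik), bases 2 to 9 are complementary to U6atac. U4, U4atac and U6atac have no named gene in the tables. Gm24265, Gm22710 and Gm25541 were taken for them from textbook knowledge of these RNAs and served as the references to which other rows were compared.
Rnu1a1: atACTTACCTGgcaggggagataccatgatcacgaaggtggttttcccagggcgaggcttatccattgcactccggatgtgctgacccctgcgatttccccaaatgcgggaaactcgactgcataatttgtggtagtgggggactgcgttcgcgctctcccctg
Rnu2-10: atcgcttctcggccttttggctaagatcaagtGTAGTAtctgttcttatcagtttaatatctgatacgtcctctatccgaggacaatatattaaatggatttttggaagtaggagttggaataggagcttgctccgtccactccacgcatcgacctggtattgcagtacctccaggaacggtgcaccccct
Gm24265: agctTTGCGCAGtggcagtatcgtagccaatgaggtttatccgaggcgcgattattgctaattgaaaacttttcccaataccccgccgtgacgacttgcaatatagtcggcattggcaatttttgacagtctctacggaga
Gm22710: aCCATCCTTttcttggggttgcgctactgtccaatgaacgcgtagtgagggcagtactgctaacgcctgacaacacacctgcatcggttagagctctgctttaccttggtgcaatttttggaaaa

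ACTTACCTG was present in all 12 U1a and all 9 U1b rows, and in 3.98% of the 1382 snRNA rows with a sequence. GTAGTA was present in all 12 U2 rows and in 3.69% of snRNA rows. The Sm protein binding letters were searched on the transcript strand only. ATTTNTGG was found in 33 of 51 rows (64.7%), against 7.53% of all snRNA rows, and in all U1a and U2 rows but no U4 or U5 row. The shorter ATTTNT, which overlaps it and was chosen after the sequences were seen, was found in 44 of 51 rows (86.3%) against 55.9%, U4 and U5 included. A match is a description of letters and does not show binding.

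Few fragments stood behind these values. Library totals were estimated from short genes for which FPKM and its confidence interval gave a whole number of fragments, which held for 28.2% of 2143 short-gene values above 0. These estimates ran from 75119 fragments (knockdown axonal replicate 5) to 720827 (control somatodendritic replicate 3), with group medians of 415053 in control axonal, 542405 in control somatodendritic, 368552 in knockdown axonal and 390614 in knockdown somatodendritic libraries. In a gene as long as Rnu1a1, 1 fragment was worth 8.46 to 81.2 FPKM. Only 9 of the 51 rows were above 0 in all 20 libraries, 5 were above 0 in only 1, and 26 had a mean of less than 1 fragment. Tdp-43 mRNA (Tardbp) had a mean of 27.3 FPKM in control and 4.01 FPKM in knockdown somatodendritic libraries (limma, adjusted p = 0.0228), and of 24.6 and 12.99 FPKM in axonal libraries (adjusted p = 0.427). The motoneuron markers Chat, Isl2 and Mnx1 were at 0 in all 20 libraries, and the summed motoneuron list of 6 genes did not exceed 8.03 FPKM in any library, whereas 5 astroglial genes summed to 257 to 330 FPKM in control and 178 to 320 FPKM in knockdown somatodendritic libraries, and to 63.5 to 429 and 16.7 to 526 FPKM in control and knockdown axonal libraries. In such mixed cultures, fewer cells of a type and less RNA per cell cannot be told apart. The median log2 difference of all genes tested between knockdown and control was −0.13 in somatodendritic and −0.17 in axonal libraries with the scaling used here, and 0.04 and 0.23 with FPKM as deposited.

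U2, which recognises the branch point, was lower after Tdp-43 knockdown in both compartments, about 10 times lower and without overlap between libraries. U5, which aligns the exon ends, was found in all 8 control libraries and in no knockdown library, over all 10 U5 rows of the tables whatever their mean FPKM. U1a did not differ by more than the spread between libraries, and U4 was much higher in the somatodendritic than in the axonal compartment under both conditions.

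Between knockdown and control somatodendritic libraries, 11 of the 40 members that could be tested were lower at an adjusted p under 0.05 (limma, adjusted over 13762 genes), 9 of them U2 and 2 U5. Of all genes tested, 0.756% were called lower. Of these 11 members, Gm25099, Gm24871, Gm25813 and Gm25939 averaged under 1 FPKM in the knockdown somatodendritic libraries, so that only control libraries brought them into the comparison. Among the 30 members averaging at least 1 FPKM in the knockdown libraries themselves, a limit set after seeing the data, 7 were called lower, all U2, against 0.591% of all such genes. No member was called higher at this threshold, and 3 of 40 (both U4 genes and the U1a gene Gm22513) were higher at an unadjusted p under 0.05, against 4.59% of all genes. Between knockdown and control axonal libraries, 11 of 41 members were called lower, again 9 U2 and 2 U5, against 0.387% of all genes. With the same limit in knockdown axonal libraries the 9 U2 calls of 30 members were left, against 0.232% of all such genes. The axonal count was 3 without control axonal replicate 1, 6 without control axonal replicate 3 and 2 with a pseudocount of 0.1. Near-identical copies share reads that the mapping cannot place, so that calls within a type are not independent of each other. The summed FPKM of a type was therefore used to describe levels, and it carries no test.

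**Figure D1:**
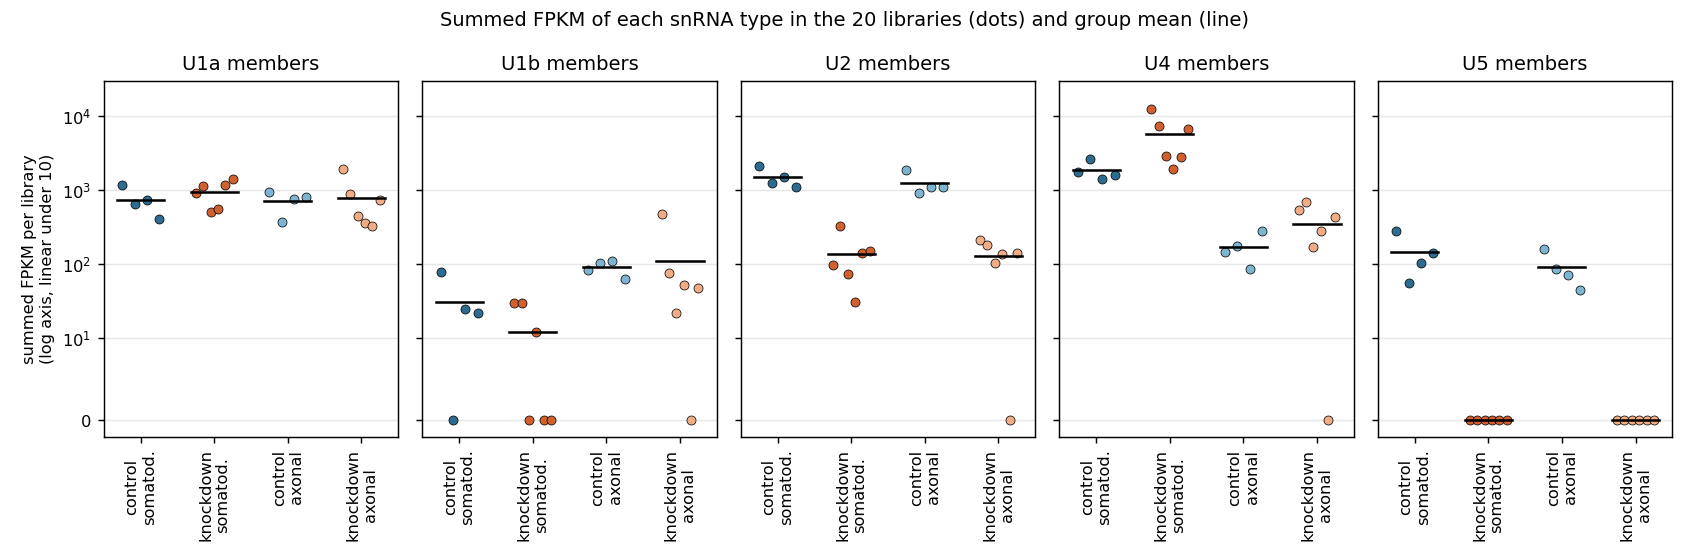
Summed FPKM per library (dots, log axis, linear below 10) of the U1a, U1b, U2, U4 and U5 genes in control and knockdown somatodendritic and axonal libraries, with group means as lines. U2 and U5 of all knockdown libraries lie below all control libraries, and U4 of the somatodendritic libraries lies above that of the axonal libraries.

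The U2 genes summed to 2118, 1264, 1506 and 1093 FPKM in control somatodendritic replicates 1 to 4. In the 6 knockdown somatodendritic libraries they summed to between 31.2 and 326 FPKM with a median of 119.2. No knockdown library reached the lowest control library. The group means were 1495 ± 448 (SD, n = 4) and 137 ± 103 (SD, n = 6) FPKM, 10.9-fold lower after knockdown, and rested on 646 and 49 fragments.

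The same was seen in axons. U2 summed to 1876, 928, 1113 and 1123 FPKM in control axonal replicates 1 to 4. In the 6 knockdown axonal libraries it ranged from 0 to 210 FPKM with a median of 141. The groups did not overlap, and the means of 1260 ± 420 (SD, n = 4) and 130 ± 73.4 (SD, n = 6) FPKM differed 9.69-fold on 411 and 61 fragments. The 0 was in knockdown axonal replicate 5, the shallowest library.

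Rnu2-10, the named U2 gene shown above, had 336, 193, 218 and 170 FPKM in the control somatodendritic libraries and 6.24 to 35.5 FPKM (median 20.3) after knockdown. In control axons it had 278, 152, 171 and 154 FPKM, and after knockdown 0 to 30.3 FPKM (median 17.4). The groups were separate in both compartments. On the log2(scaled FPKM + 1) scale its difference was −3.74 ± 0.41 (SE) in somatodendritic libraries (limma, adjusted p = 0.000572) and −4.29 ± 0.73 in axonal libraries (adjusted p = 0.00858). An exact two-sided permutation test on FPKM as deposited gave p = 0.00476 in each, the smallest that 4 against 6 libraries can give. Its copies Gm23849 and Gm23971, also on chromosome 11 and identical to it in sequence, gave log2 differences of −3.79 and −3.78 in somatodendritic and −4.31 and −4.27 in axonal libraries. In axons the calls of all 3 rested on control replicate 1, whose values were the highest (278 FPKM in Rnu2-10). Without it the log2 difference of Rnu2-10 was −4.10 (limma, adjusted p = 0.0614). With a pseudocount of 0.1 none of the U2 genes was called in axons, and their median log2 difference was −4.80 against −4.06 with a pseudocount of 1.

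A second set of U2 genes differs from Rnu2-10 by few bases, with positions counted from 1 at the 5′ end. Gm23472 and Gm23444 carry G109C, Gm24497 carries G109C and C186A, and Gm25360 carries C78T, A95G, G109C and C154T. Gm23472 had 101, 72.3, 94.6 and 57.4 FPKM in control somatodendritic libraries and 0 in 3 of the 6 knockdown libraries, with 4.15, 4.599 and 31.0 FPKM in the others. Its log2 difference was −4.83 ± 0.84 (limma, adjusted p = 0.0169), and those of Gm24497 and Gm23444 were −4.84 and −4.80. These 3 genes had the same value in every knockdown somatodendritic library, so that they hold 1 signal rather than 3. Their somatodendritic calls were lost without control somatodendritic replicate 1, 2 or 3. In axons their log2 differences were −3.93 to −3.88 (limma, adjusted p of 0.00931 to 0.0105), and for Gm23472 the adjusted p was 0.0707 without control axonal replicate 1 and 0.0569 without control axonal replicate 3.

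Gm25360, with 4 substitutions, had a log2 difference of −5.04 ± 1.12 in somatodendritic libraries, where it missed the threshold (limma, adjusted p = 0.0546), and of −4.83 ± 0.98 in axonal libraries (adjusted p = 0.0412). The axonal call of Gm25360 was lost on leaving out any 1 library other than knockdown axonal replicate 1 or 2, with limma adjusted p-values up to 0.185. Its control libraries held 58.1 to 143 FPKM, while 4 of 6 knockdown somatodendritic and 3 of 6 knockdown axonal libraries were at 0. The highest knockdown values were 52.1 FPKM in somatodendritic replicate 2 and 57.2 FPKM in axonal replicate 1. Gm25813 (C78T and G131C), with control somatodendritic values of 4.79 to 22.1 FPKM, was at 0 in all knockdown libraries, which is at least 1.60-fold lower in somatodendritic libraries and a description only, since control libraries alone made it a member. Of the remaining U2 genes, Gm25939 (T69C, C78T and G109C) and Gm26316 (C170T) were called lower in both compartments, and Gm22973 in neither (limma, adjusted p = 0.154 and 0.306). The somatodendritic call of Gm25939 is a description only. It averaged 0.543 FPKM in knockdown somatodendritic libraries, so that control libraries brought it into that comparison. Gm25939, Gm26316 and Gm22973, like Gm22513 and the less abundant U5 genes below, were named after their values were seen. Over all U2 genes the log2 differences ran from −5.04 to −2.24 in somatodendritic and from −4.83 to −2.42 in axonal libraries.

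Both kinds of U2 copy were lower. The 3 copies identical to Rnu2-10 summed to 699 FPKM in control and 62.6 FPKM in knockdown somatodendritic libraries, and the 8 copies with substitutions to 567 and 53.5 FPKM. In axons the sums were 565 and 54.0 FPKM for identical copies and 507 and 58.0 FPKM for the others.

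**Figure D2:**
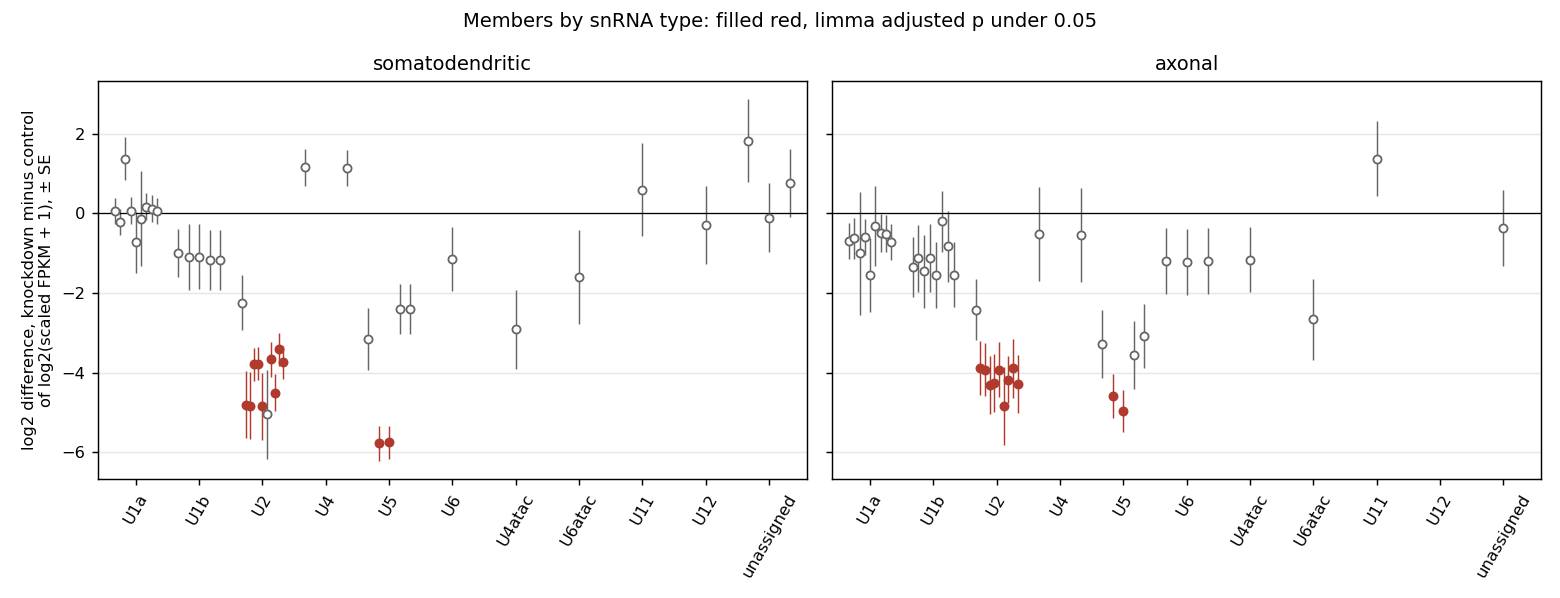
Log2 difference between knockdown and control (log2 of scaled FPKM + 1) with its SE for each member, by snRNA type, in somatodendritic and axonal libraries. Filled red points passed an adjusted p of 0.05 (limma), and in both compartments these are U2 and U5 genes below 0.

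The 5 U5 genes summed to 279, 55.4, 106 and 142 FPKM in control somatodendritic replicates 1 to 4 (38.1 fragments in all) and to 159, 87.0, 70.8 and 45.1 FPKM in control axonal replicates 1 to 4 (18 fragments). All 12 knockdown libraries were at 0. The floor of 3 fragments over a group corresponds to 12.98 FPKM in knockdown somatodendritic and 12.1 FPKM in knockdown axonal libraries, so that U5 was at least 11.2-fold lower in the former and at least 7.47-fold lower in the latter. Being at 0 in knockdown libraries, the 5 U5 genes reached the mean of 1 FPKM through control libraries alone, so that the direction of each single gene's difference was set by the choice of members. This holds for 11 of 46 members in all (5 U5, 4 U6 and 2 U2). The sums of U5 do not rest on that choice. All 10 U5 rows of the tables, summed whatever their mean FPKM after seeing the data, gave 55.4 to 279 FPKM in control somatodendritic and 45.1 to 159 FPKM in control axonal libraries, and no U5 row was above 0 in any knockdown library.

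The U5 gene Gm25099 had 120, 29.3, 53.8 and 31.6 FPKM in control somatodendritic and 29.8, 32.6, 17.7 and 22.5 FPKM in control axonal libraries. As a description, it was at least 4.52-fold lower in knockdown somatodendritic libraries, at least 2.95-fold without control somatodendritic replicate 1, and at least 2.12-fold lower in knockdown axonal libraries. Gm24871, which lies in an exon of B930036N10Rik on the same strand, was at least 4.69-fold and at least 1.67-fold lower. The other 3 U5 genes, Gm23143, Gm25313 and Rnu5g, were also at 0 in all knockdown libraries but above 0 in only some control libraries. None of these 3 was called (limma).

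The U1a genes showed another picture. U1 defines the start of introns and protects pre-mRNAs from premature polyadenylation. The sum was 1194, 648, 731 and 413 FPKM in control somatodendritic libraries and 517 to 1408 FPKM (median 1022) after knockdown. In axons it was 951, 377, 759 and 821 FPKM in control libraries and 325 to 1917 FPKM (median 596) after knockdown. The groups overlapped in both compartments, with means of 747 ± 327 (SD, n = 4) and 954 ± 357 (SD, n = 6) FPKM in somatodendritic and 727 ± 246 (SD, n = 4) and 779 ± 599 (SD, n = 6) FPKM in axonal libraries.

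None of the 9 U1a members was called in either compartment (limma, lowest adjusted p = 0.277 in somatodendritic and 0.692 in axonal libraries). Rnu1a1 had a log2 difference of 0.06 ± 0.33 in somatodendritic libraries (limma, adjusted p = 0.960). In axons its difference was −0.71 ± 0.45 (adjusted p = 0.717). The median over U1a was 0.06 in somatodendritic and −0.62 in axonal libraries, and the former turned to −0.17 without libraries of under 0.5 relative depth. Gm22513 had the highest U1a difference, 1.38 ± 0.54 in somatodendritic libraries (limma, adjusted p = 0.277).

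U1b is a variant of U1 known from embryonic mouse tissue, encoded mostly in a cluster on chromosome 3. It was scarce. The sum was 77.4, 0, 25.1 and 22.1 FPKM in control somatodendritic and 83.6, 105, 112 and 63.2 FPKM in control axonal libraries. After knockdown it was 0 to 30.3 FPKM (median 6.001) in somatodendritic and 0 to 473 FPKM (median 50.2) in axonal libraries. Control and knockdown overlapped in both compartments, and no U1b gene was called lower or higher (limma, lowest adjusted p = 0.517 and 0.638).

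Because U1a, U2 and U5 were measured in the same libraries, their ratios do not depend on how the libraries were scaled. U2 over U1a was 1.77 to 2.65 in control somatodendritic and 1.37 to 2.46 in control axonal libraries. It was 0.0552 to 0.287 in knockdown somatodendritic and 0 to 0.379 in knockdown axonal libraries. Every knockdown library thus had a lower ratio than every control library. U5 over U1a had a mean of 0.202 in control somatodendritic and 0.137 in control axonal libraries and was 0 in all knockdown libraries.

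**Figure D3:**
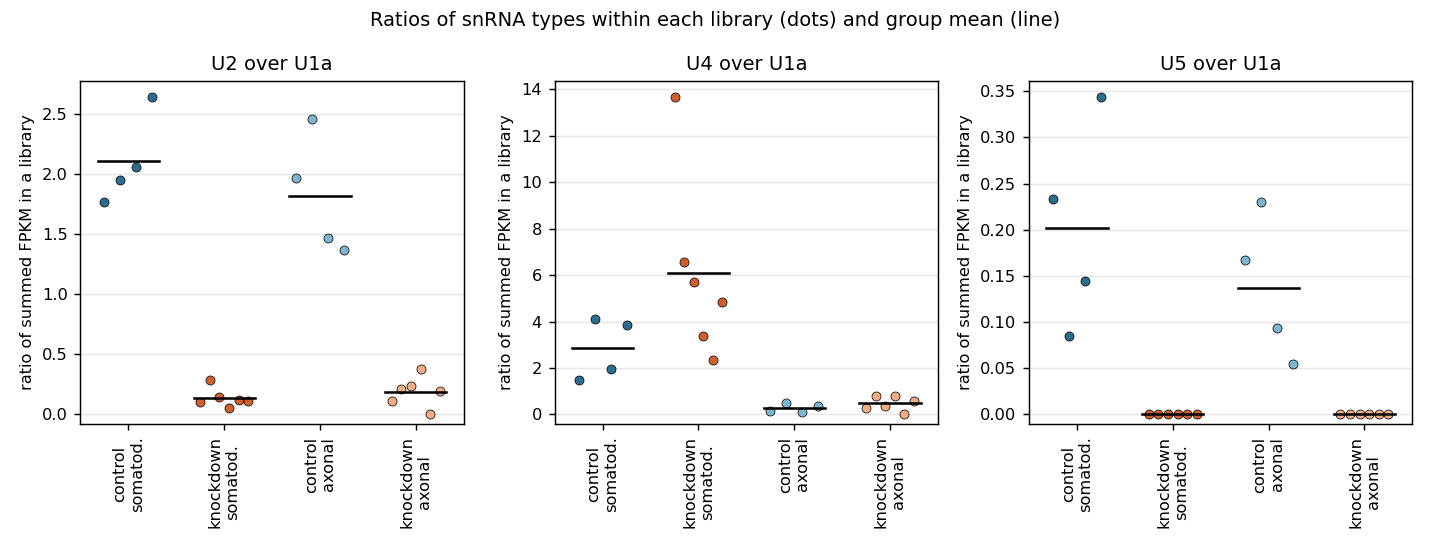
Ratios of the summed FPKM of U2, U4 and U5 to that of U1a within each library (dots, linear axes) with group means as lines. U2 over U1a lies between 1.37 and 2.65 in the control libraries and between 0 and 0.379 in the knockdown libraries.

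U4 chaperones U6 into the tri-snRNP. Its 2 genes, Gm24265 and Gm24407, lie side by side on chromosome 5, differ by G88A and C99A, and had the highest mean level of all members, 1115 and 1116 FPKM over the 20 libraries. The sum was 1764, 2653, 1420 and 1589 FPKM in control somatodendritic libraries. In knockdown somatodendritic libraries it ranged from 1917 to 12449 FPKM with a median of 4873. All knockdown libraries but replicate 4 lay above all control libraries, and the means were 1857 ± 549 (SD, n = 4) and 5729 ± 4003 (SD, n = 6) FPKM. The difference was 3.09-fold on the linear scale and 1.16 ± 0.46 on the log2 scale for Gm24265, which did not pass the test (limma, adjusted p = 0.286). An exact two-sided permutation test of Gm24265 on FPKM as deposited gave p = 0.0429.

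In axons U4 was 147, 179, 87.4 and 281 FPKM in control and 0 to 693 FPKM (median 361) in knockdown libraries. The groups overlapped. The log2 difference of Gm24265 was −0.51 ± 1.18 (limma, adjusted p = 0.925), while the means of 174 ± 81.2 (SD, n = 4) and 353 ± 254 (SD, n = 6) FPKM had the opposite order. Without libraries of under 0.5 relative depth, the median log2 difference of both U4 genes was 0.49.

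The comparison between compartments asked which snRNAs differed in relative level between axonal and somatodendritic libraries. Other RNAs differed between the compartments too. The fibroblast gene Col1a1 was higher in axonal libraries (26.4 against 2.66 FPKM in control, log2 difference 3.51, limma, adjusted p = 0.00442, and 3.41 with adjusted p = 0.0186 after knockdown). The 5 fibroblast genes summed to 11.9 to 47.9 FPKM in control axonal and 1.43 to 11.9 FPKM in control somatodendritic libraries, most of it from Col1a1. In control libraries Col1a2 (2.43 axonal against 0.576 FPKM somatodendritic) and Col3a1 (1.065 against 0.0823 FPKM) had the same direction. Dcn (0.607 against 0.826 FPKM) and Lum (0 against 0.224 FPKM) had the opposite one. The oligodendrocyte lineage gene Olig1 was lower in control axonal libraries (log2 difference −2.01, limma, adjusted p = 0.0164). Malat1, a nuclear RNA, had 382 FPKM in control axonal and 698 FPKM in control somatodendritic libraries (log2 difference −0.35, limma, adjusted p = 0.321), and 1391 and 680 FPKM after knockdown (log2 difference 1.30, adjusted p = 0.0177). The part of other cells or of nuclear RNA in the snRNA values of axonal libraries was not tested. In control libraries 3 of 44 members were lower in axons at an adjusted p under 0.05 (limma, over 13760 genes), both U4 genes and the U2 gene Gm25813, against 2.97% of all genes. Gm25813 averaged 0.275 FPKM over the 16 libraries other than control somatodendritic ones and was a member through the group where it is high, whereas the U4 genes averaged 1163 and 1162 FPKM over those 16. No member was called higher in axons, and at an unadjusted p under 0.05 there were 7 of 44, of which 6 were U1b genes and 1 the U2 gene Gm25939, against 11.1% of all genes. In knockdown libraries 2 of 35 members, both U4 genes, were lower in axons, against 0.421% of all genes. At an unadjusted p, 5 of 35 were higher, 4 U1b genes and Gm25939, against 7.86% of all genes.

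U4 was 10.7-fold higher in control somatodendritic than in control axonal libraries, with no overlap. The log2 difference of Gm24265 (axonal minus somatodendritic) was −2.96 ± 0.32 (limma, adjusted p = 0.000951) and that of Gm24407 −2.95 ± 0.33 (adjusted p = 0.00107). After knockdown U4 was 16.2-fold higher in somatodendritic libraries, again with no overlap, and Gm24265 differed by −4.66 ± 1.10 (limma, adjusted p = 0.0496). The Gm24265 call stood just under the threshold and was lost when any 1 library other than knockdown axonal replicate 4 or 5 was left out, with limma adjusted p-values up to 0.112. The exact two-sided permutation test gave 0.0286 in control and 0.00216 in knockdown libraries for Gm24265, the smallest p that 4 against 4 and 6 against 6 libraries allow. U4 made up 43.4% of the summed member FPKM in control somatodendritic and 7.72% in control axonal libraries, and 79.8% and 23.7% after knockdown.

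**Figure D4:**
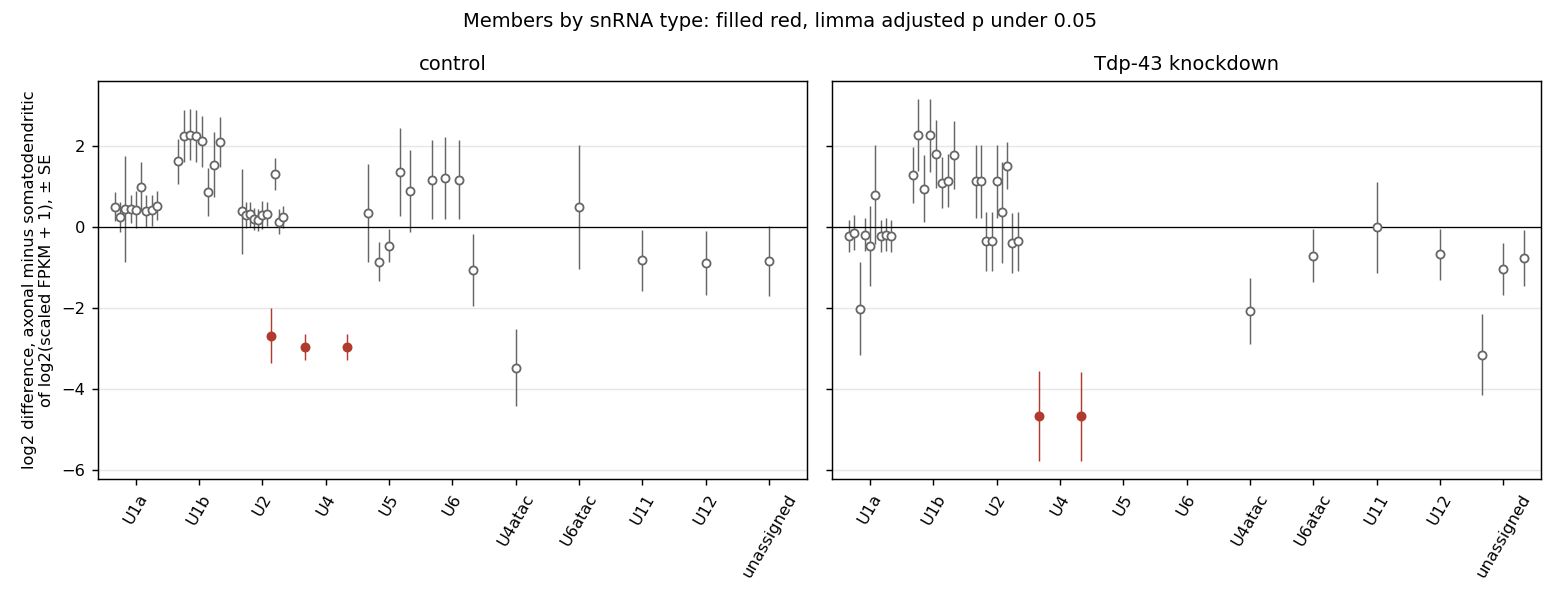
Log2 difference between axonal and somatodendritic libraries (log2 of scaled FPKM + 1) with its SE for each member, by snRNA type, in control and knockdown. Filled red points passed an adjusted p of 0.05 (limma), which are the 2 U4 genes in both conditions and Gm25813 in control, all lower in axons.

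In axonal libraries, U2 and U1a had levels near those of somatodendritic libraries. In control libraries U2 had means of 1495 ± 448 (SD, n = 4) FPKM in somatodendritic and 1260 ± 420 (SD, n = 4) FPKM in axonal libraries, and U1a 747 ± 327 and 727 ± 246 FPKM. The ranges overlapped. The median log2 differences were 0.31 for U2 and 0.45 for U1a with the scaling used here, and −0.21 and −0.04 with FPKM as deposited, so that they have no stable direction. The U2 gene Gm25813 is given as a description only, because control somatodendritic libraries made it a member. It was above 0 in all 4 control somatodendritic libraries (22.1, 14.5, 8.88 and 4.79 FPKM) and in 1 control axonal library (4.41 FPKM). The call of Gm25813 was lost on leaving out any 1 library other than control axonal replicate 2 or control somatodendritic replicate 4. It was at 0 in all 12 knockdown libraries, and rested on fewer than 3 fragments in every library.

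U1b had the opposite tendency. In control libraries its mean was 31.2 ± 32.8 (SD, n = 4) FPKM in somatodendritic and 90.9 ± 22.1 (SD, n = 4) FPKM in axonal libraries, and the ranges overlapped because somatodendritic replicate 1 had 77.4 FPKM. All 8 U1b genes were higher in axons, with log2 differences of 0.87 to 2.29, but none passed the test (limma, lowest adjusted p = 0.0531). With a pseudocount of 10, 4 of the 8 passed, and with quantile normalization 1. Gm24830 had 14.7, 0, 4.11 and 4.04 FPKM in control somatodendritic and 13.9, 17.5, 18.5 and 11.2 FPKM in control axonal libraries. Its log2 difference was 2.25 ± 0.64 (limma, adjusted p = 0.0605), and 2.81 (adjusted p = 0.0307) without control somatodendritic replicate 1. After knockdown the 8 differences were 0.95 to 2.27 (limma, lowest adjusted p = 0.207). These values rested on 11.9 and 25.9 fragments in control and 4.9 and 53.9 fragments in knockdown somatodendritic and axonal libraries. Of the 53.9, knockdown axonal replicate 1 held 43, and 10.9 were left without it.

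Whether the knockdown difference itself differed between compartments was tested with an interaction term over all 20 libraries. No member of 46 was called at an adjusted p under 0.05 (limma), against 0.0711% of all genes, and 1 of 46 had an unadjusted p under 0.05, against 5.61% of all genes. That gene was Gm25813, with an interaction of 2.79 ± 0.73 (adjusted p = 0.330). Gm25813 was a member through control somatodendritic libraries, where it is high, so that the direction was set by the choice of members. Its interaction is therefore a description only. For Rnu2-10 the interaction was −0.63 ± 0.95 and for Gm24265 −1.73 ± 1.48 on the log2 scale (limma, adjusted p = 0.972 and 0.962).

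The minor spliceosome was close to the limit of detection. Gm22710, the U4atac gene shown above, had 29.7, 36.3, 44.4 and 14.6 FPKM in control somatodendritic libraries and 20.9 FPKM in 1 control axonal library. After knockdown it was above 0 in 3 of 6 somatodendritic libraries (15.9 to 21.1 FPKM) and in no axonal library. Its log2 difference after knockdown was −2.91 ± 0.99 in somatodendritic libraries (limma, adjusted p = 0.197), on 9 and 3 fragments, and its compartment difference in control was −3.46 ± 0.95 (adjusted p = 0.0530). Gm25541, the U6atac gene, was above 0 in 4 control libraries and 1 knockdown library. Rnu11 was above 0 in 1 control and 4 knockdown libraries, and Rnu12 in 1 of each. With FPKM as deposited the compartment difference of Gm22710 in control was −3.80 (limma, adjusted p = 0.0189), and over its alternatives the limma adjusted p ran from 0.000517 (without control axonal replicate 4) to 0.143. For Gm25541, Rnu11 and Rnu12 no difference was detectable at this depth.

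U6, the catalytic snRNA, was nearly absent from the tables. The 4 U6 rows were above 0 in 1 library each, all of them control libraries, and are 84.1% to 95.4% identical to Rnu6, while Rnu6 itself was at 0 in all 20 libraries. Rnu7, which processes histone mRNAs and is no spliceosomal RNA, was also at 0 in all 20 libraries. Each U6 row rests on 1 fragment, and its values allow no comparison.

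The 3 rows of no type were Gm22122, Gm26359 and Gm25135, with 58.0%, 72.0% and 76.2% identity to the nearest type, under the minimum of 80%. Gm22122 (chr6:48289228-48289427, plus strand, intergenic) is printed because its first 61 bases, in capitals, are those of the U4 gene Gm24265, so that fragments of U4 could be counted there.
Gm22122: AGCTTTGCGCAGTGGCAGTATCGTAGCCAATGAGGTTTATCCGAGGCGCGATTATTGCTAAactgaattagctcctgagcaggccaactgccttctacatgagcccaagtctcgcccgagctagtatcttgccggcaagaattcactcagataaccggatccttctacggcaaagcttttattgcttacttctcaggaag

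Gm22122, like U4, had its highest group mean in knockdown somatodendritic libraries. It had 9.28, 11.3, 2.31 and 3.05 FPKM in control somatodendritic libraries and 0 to 127 FPKM (median 34.6) after knockdown, with a log2 difference of 1.83 ± 1.04 (limma, adjusted p = 0.482). In axons it did not exceed 11.5 FPKM in control and 14.6 FPKM in knockdown libraries. It rested on a mean of 1.15 fragments per library, part of them fractions of a fragment shared with other genes. Gm26359 was above 0 in 1 library and Gm25135 in 4, at no more than 26.1 and 11.6 FPKM.

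Over all members tested, the median log2 difference between knockdown and control was −1.16 in somatodendritic and −1.35 in axonal libraries, against −0.13 and −0.17 over all genes tested. These medians include members brought in by control libraries alone. With members at 0 in a whole group set at their bound of 3 fragments, the medians were −0.48 and −0.71. Leaving out 1 library at a time moved the somatodendritic median between −1.87 (without control somatodendritic replicate 2) and −0.63, and the axonal one between −1.73 and −1.16. The medians were −2.04 and −2.25 with a pseudocount of 0.1, and −0.37 and −0.58 with a pseudocount of 10. For other short noncoding RNAs the medians were not set at a bound. The 150 small nucleolar RNAs tested, which guide RNA modification, had a median of −1.67 in somatodendritic libraries, with 12 called lower and none higher (limma). In axonal libraries the median was −1.31 over 116, with 9 called lower. Genes of under 200 bases other than snRNA, which include small nucleolar RNAs of that length, had medians of −1.39 and −1.31. Of these genes, 9 of 196 and 17 of 172 were called lower. Protein-coding genes had medians of −0.11 and −0.16.

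Locus length was therefore examined. Genes of other types of at least 50 and under 80 bases summed to means of 1001 and 150 FPKM in control and knockdown somatodendritic libraries and of 1377 and 40.3 FPKM in control and knockdown axonal libraries, and those of 80 to under 100 bases to 534, 146, 199.1 and 17.3 FPKM in the same order. Genes of 150 to under 200 bases, the range of U1 and U2, summed to 287, 226, 179 and 292 FPKM. Of these 52 genes, 33, 18, 32 and 23 were above 0 in any library of the group, in the same order. Genes of 100 to under 120 bases, the range of U5 (116 bases), summed to 4906, 3770, 4153 and 6122 FPKM. Most of this came from the Y RNAs Rny1 and Rny3, which gave 4740, 3700, 3852 and 6066 FPKM. The other 36 genes of this length, a split made after seeing the data, summed to 166, 69.8, 301 and 55.97 FPKM, lower after knockdown and without overlap between libraries in axons (156 to 446 against 39.6 to 85.2 FPKM), while the somatodendritic libraries overlapped (109.5 to 202 against 0 to 133 FPKM). Genes of other types of 200 to 299 bases, the longest examined, summed to 9763 FPKM in control and 5412 FPKM in knockdown somatodendritic libraries without overlap, and to 8023 and 7745 FPKM in axonal libraries with overlap. Those of 120 to under 150 bases, the range of U4 (141 bases), summed to 8342, 5243, 16310 and 4056 FPKM. The part of length, RNA recovery and amplification in these differences was not tested.

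**Figure D5:**
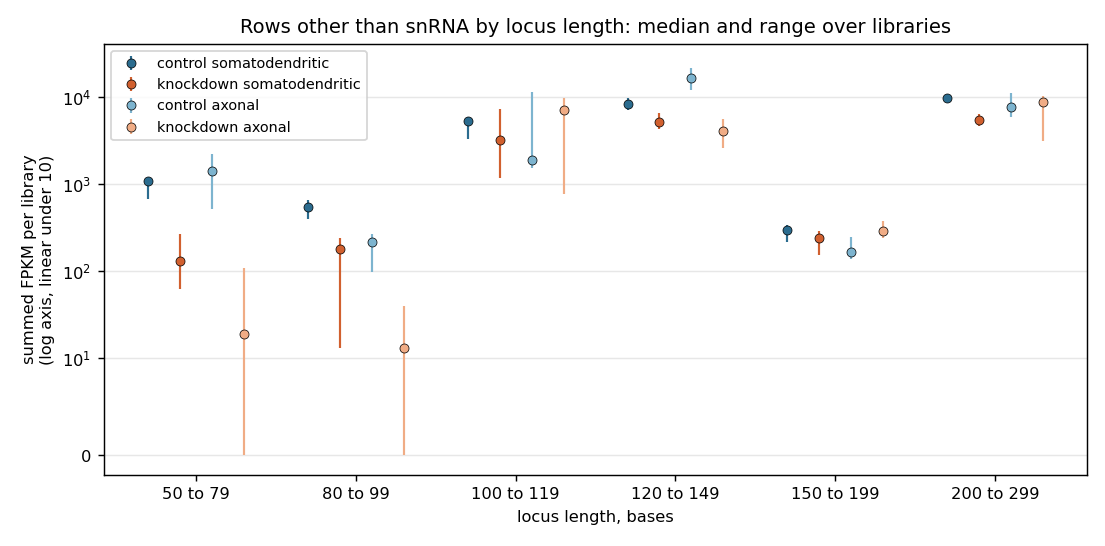
Summed FPKM per library (log axis, linear below 10) of genes other than snRNA by locus length in bases, as the median (dot) and range (line) over the libraries of each group. Knockdown libraries lie below control libraries of the same compartment from 50 to under 100 and from 120 to under 150 bases, and in somatodendritic libraries also from 200 to 299 bases, the longest bin. Control and knockdown overlap from 100 to under 120 bases, where Rny1 and Rny3 make up most of the sum.

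Of 5 other small RNAs made by RNA polymerase III (Rn7sk, Rmrp, Rpph1, Rny1 and Rny3), Rmrp was the 1 called after knockdown, in somatodendritic libraries (limma). Rn7sk, which binds the elongation factor P-TEFb, had means of 13510 and 13240 FPKM in control and knockdown somatodendritic libraries (log2 difference −0.26 ± 0.15, limma, adjusted p = 0.490) and of 4006 and 5929 FPKM in axonal libraries (log2 difference 0.05, adjusted p = 0.974). Rmrp, the RNA of RNase MRP, was lower after knockdown in somatodendritic libraries, with means of 2119 and 1011 FPKM and a log2 difference of −1.29 ± 0.17 (limma, adjusted p = 0.00197). In axonal libraries its means were 733 and 840 FPKM (log2 difference −0.40, limma, adjusted p = 0.780). Rn7sk and Rmrp were lower in axons than in the somatodendritic compartment of control cultures (limma, log2 differences −1.26 and −1.01, adjusted p = 0.00526 and 0.00696). Rpph1, the RNA of RNase P, had log2 differences of −0.31 after knockdown in somatodendritic libraries and −0.89 between compartments in control (limma, adjusted p = 0.494 and 0.0659). Rny1 had 1524 FPKM in control and 456 FPKM in knockdown somatodendritic libraries (log2 difference −2.33 ± 0.54, limma, adjusted p = 0.0648), and its compartment difference in control was 0.19 (adjusted p = 0.855). For Rny3 these differences were −0.50 and −0.85 (limma, adjusted p = 0.713 and 0.488).

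A list of mRNAs was examined for Sm, LSm, U1 and U6 partner proteins and for factors that make snRNPs, without proteins specific to U2, U4 or U5. Of 57 listed genes 53 were in the tables, and none of the 53 tested in somatodendritic and the 52 in axonal libraries was called after knockdown (limma, adjusted p under 0.05). At an unadjusted p under 0.05, 2 were higher and 5 lower in somatodendritic libraries, and 3 higher and 4 lower in axonal libraries. Over all genes tested the shares were 4.59% higher and 9.22% lower in somatodendritic and 2.14% and 6.46% in axonal libraries, so that the list was near this background. The median log2 difference of the list was −0.18 and −0.36. The 8 Sm genes, whose proteins form the ring on U1, U2, U4 and U5, had lower medians of −0.85 and −1.23. At an unadjusted p under 0.05 (limma), 3 and 4 of the 8 were lower, against 9.22% and 6.46% of all genes. Snrpb, Snrpn and Snrpd2 lay at −0.16, −0.10 and −0.14 in somatodendritic libraries, and Snrpn and Snrpd2 at 0.13 and 0.10 in axonal libraries. The lowest Sm genes in somatodendritic libraries were Snrpg and Snrpf. Snrpg had means of 11.5 ± 3.98 (SD, n = 4) and 1.61 ± 2.79 (SD, n = 6) FPKM there (log2 difference −2.88 ± 0.62, limma, adjusted p = 0.0509), and Snrpf of 7.248 and 0.9997 FPKM (−2.31 ± 0.62, adjusted p = 0.102). Smn1, the core of the SMN complex, had a log2 difference of −1.02 ± 0.81 in somatodendritic and −1.46 ± 1.04 in axonal libraries (limma, adjusted p = 0.629 and 0.733).

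Between compartments, 2 genes of this list were called in control cultures, 1 in each direction, against 3.93% of all genes called higher and 2.97% called lower. Snrpn, the neuronal relative of the Sm B protein, had 126 ± 12.9 (SD, n = 4) FPKM in somatodendritic and 31.4 ± 5.99 (SD, n = 4) FPKM in axonal libraries, a log2 difference of −1.46 ± 0.21 (limma, adjusted p = 0.00405). Snrpb, which encodes Sm B itself, went the other way with 13.2 and 22.5 FPKM and a difference of 1.34 ± 0.35 (adjusted p = 0.0459). After knockdown Snrpn was again lower in axons (log2 difference −1.204 ± 0.28, limma, adjusted p = 0.0461), and no other gene of the list was called.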

How the data were processed

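Total RNA was amplified by PCR without molecular identifiers and sequenced. The authors deposited 1 table of FPKM values per library, and the labels name FastQC 0.10.1, Cufflinks 2.2.1 and build GRCm38. Library totals were estimated, as a description of depth only, from FPKM and its deposited confidence interval in small RNA genes under 400 bases. The implied fragments lay within 0.02 of a whole number for 604 of 2143 values above 0 (28.2%), and 570 of these (94.4%) gave a total within 0.1% of their library's median. A gene's fragments are its FPKM times length times this total. Values were divided by median-of-ratios factors, and log2(FPKM + 1) was tested with limma 3.58.1 (R 4.3.3) over genes averaging 1 FPKM or more, and p-values were adjusted over all of them (Benjamini-Hochberg). Fold changes on this scale understate the change of low genes. Exact two-sided permutation tests used SciPy 1.17.1 on FPKM as deposited. Types came from symbols and from sequence identity of at least 80%. Named were the most abundant member of each type, the 5 most abundant members, the members called in a comparison (at most 5 per direction, otherwise the 2 of lowest p) and those next to the threshold. The code was tested on simulated data. Other scalings, pseudocounts, filters, array weights, a replicate block and leaving out libraries were tried. Members and lists were chosen with earlier results of these data known. The sequence of 1 member is not reported here.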

Additional observations from a re-analysis of the deposited data

Results flagged for a closer look

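Libraries far from the rest of their group were looked for in 112 groups of values, of which chance flags about 1 in 20. In knockdown axonal replicate 1 the U1a sum was 1917 FPKM, with 880.0 FPKM in the nearest library, and the U1b sum was 473.1 FPKM, with 76.3 FPKM in the nearest. Within them, Rnu1a1 stood at 203.4 FPKM (nearest 84.9 FPKM) and Gm24830 at 93.28 FPKM (nearest 14.1 FPKM). In control axonal replicate 1, the U2 genes Gm23849 and Rnu2-10 stood at 277.5 FPKM, with 174 and 171 FPKM in the nearest library. In knockdown somatodendritic replicate 2, the U2 genes Gm24497, Gm23472 and Gm23444 stood at 30.95 FPKM each (nearest 4.599 FPKM), which is 1 signal in 3 genes. In knockdown axonal replicate 2, Gm22122 stood at 14.58 FPKM (nearest 3.28 FPKM).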

How the results depend on the processing

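Members called after knockdown in somatodendritic libraries numbered 11, and 7 among members with a mean of at least 3 fragments, with 8 to 12 on leaving out 1 library. In axonal libraries there were 11, and 2 with a pseudocount of 0.1, where all 9 U2 calls were lost. Leaving out 1 library gave 3 to 12, with 3 without control axonal replicate 1 and 6 without control axonal replicate 3. Between compartments in control, the 3 calls became 5 with quantile normalization, 6 with a pseudocount of 10 and 6 with a mean of at least 10 FPKM, and 2 to 7 on leaving out 1 library, with 7 without control somatodendritic replicate 1. In knockdown, the 2 calls became 0 with a pseudocount of 0.1 and 0 with no filter, and 0 to 2 on leaving out 1 library, staying at 2 only without knockdown axonal replicate 4 or 5. The interaction gave 0 to 1, with 1 without control axonal replicate 2. The cause was not tested. Over the limma alternatives for single named members, exact permutation tests not counted, a call was kept 373 times and lost 82 times. A member without a call stayed without one 1665 times and gained one 18 times, and none reversed. Among all genes, 30 of 134 somatodendritic knockdown calls were higher, and 150 of 233 with FPKM as deposited. The floor for bounds was 3 fragments over a group. The bound of Gm25099, with each control library left out in turn after seeing the data, was lowest at 2.95-fold.

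Replicate numbers are shared between groups, but the labels do not say that they pair libraries. Axonal and somatodendritic libraries of the same number correlated between −0.089 and 0.052 in their deviations from the group means, and 3 of 10 libraries correlated best with their own number. Control and knockdown libraries of the same number correlated between 0.002 and 0.137 in axonal and between −0.04 and 0.103 in somatodendritic libraries. With a replicate block the U2 calls in somatodendritic libraries went from 9 to 4 while the median U2 log2 difference was −4.04, and the calls of all types were 6 in somatodendritic and 10 in axonal libraries after knockdown, 2 between compartments in control, 0 in knockdown and 0 for the interaction.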
